A study of Mus musculus with 3 samples.

Results

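Metallothioneins are small, cysteine-rich proteins that bind zinc and copper, and Mt1, Mt2 and Mt3 encode the members of the family made in the mouse brain. Mt1 and Mt2 are classically induced by zinc, glucocorticoids, oxidative stress and interleukin-6, and their proteins buffer free metal and scavenge radicals. Mt3, first known as growth inhibitory factor, is largely confined to the central nervous system and responds little to these inducers. The genes were taken by symbol from the gene tables of the count files, which gives 3 of 32285 genes. Mt4, the remaining gene of the cluster and a gene of squamous epithelium, had 0 UMIs in every library and is not considered further.

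The counts come from single-cell libraries of the mouse brain after a transient ischaemic attack (TIA), modelled by 5 min of occlusion of the middle cerebral artery with a filament. Wild-type C57BL6J males of 10 to 12 weeks were used, and 3 mice were pooled into 1 library per condition: naive control, 24 h and 3 d after the occlusion, with the ipsilateral hemisphere taken after TIA. The control mice are labelled naive, while the paper's figure legends name both naive and Sham mice for the single-cell comparison. Against naive mice, effects of the occlusion, the surgery and the anaesthesia cannot be told apart. There is no replicate library, so every interval here covers counting error at 95% and none covers the difference between mice; cells are not replicates.

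Cells needed at least 500 detected genes and at most 7% of UMIs from mitochondrial genes, which kept 4018 of 4804 deposited cells in control, 1225 of 1619 at 24 h and 4781 of 5505 at 3 d. Their median depth was 7750, 8123 and 7868 UMIs, which was close over all cells, while the 24 h library held the fewest cells. Within each class compared below, cells were deeper at 24 h than in control. In astrocytes the median was 11495 against 9334 UMIs. Few barcodes were shared between libraries: 3 between control and 24 h, 8 between control and 3 d and 4 between 24 h and 3 d. Clusters were named from markers, as in astrocyte-like clusters, called astrocytes from here on, and the same holds for the other classes. A minimum of 50 cells per library left 6 classes to compare: microglia (1026, 284 and 1275 cells in control, at 24 h and at 3 d), astrocytes (894, 239 and 1427), neuroblasts (795, 112 and 375), endothelial cells (287, 229 and 591), pericytes (159, 182 and 327) and oligodendrocytes (232, 72 and 250). Of the 14 clusters, 3 were left unnamed because of low depth or markers of more than 1 cell type, which set aside 11.1% of control cells, 5.71% at 24 h and 7.32% at 3 d (447, 70 and 350 cells). The naming thresholds were chosen after a look at the clusters.

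Astrocytes carried most metallothionein RNA at every time. They held 82.3% of all Mt1 UMIs in control, 82.0% at 24 h and 85.4% at 3 d, and 88.9%, 93.0% and 91.5% of those of Mt3. They made up 22.2%, 19.5% and 29.8% of the cells. For Mt2 the astrocyte part was 80.4%, 84.5% and 84.8%. All members are thus predominantly astrocytic by UMIs in these libraries, Mt3 the most so. In CPM, UMIs of a gene per 1000000 UMIs of its class, control astrocytes had 3679.5 of Mt1, 2264 of Mt3 and 737 of Mt2. Because the assay counts the 3′ end of each transcript, levels of different genes need no correction for length. Differences in capture between genes were not assessed. By UMIs, Mt1 was the most abundant of the family in astrocytes in every library, before Mt3 and then Mt2.

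Outside astrocytes the order of classes differed between genes and times. Control Mt1 stood at 603 CPM in endothelial cells, 359 in oligodendrocytes, 227 in pericytes, 195 in neuroblasts and 112 in microglia, with pericytes and neuroblasts not apart beyond counting error. At 24 h the order was oligodendrocytes (1168), endothelial cells (409), neuroblasts (173), microglia (149) and pericytes (104), where neuroblasts and microglia were not apart, and at 3 d oligodendrocytes (674), endothelial cells (429), pericytes (356), neuroblasts (211) and microglia (156). Oligodendrocytes thus passed endothelial cells as the class with the second highest Mt1 level after TIA. Among the classes compared, Mt2 kept endothelial cells in this place throughout, with 154 CPM in control, 113 at 24 h and 126 at 3 d. The rest of these classes had less Mt2: neuroblasts 53.0, 45.0 and 50.6, pericytes 41.5, 17.7 and 61.7, oligodendrocytes 21.9, 64.9 and 46.5, and microglia 7.25, 6.43 and 12.3. Neuroblasts were not apart beyond counting error from pericytes in control, from oligodendrocytes at 24 h and from either class at 3 d, where these also overlapped each other.

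Outside astrocytes and among the classes compared, Mt3 was highest in neuroblasts and pericytes, with 119.8 and 115 CPM in control, 94.0 and 20.7 at 24 h, and 107 and 153 at 3 d. Oligodendrocytes had 38.6, 13.3 and 66.9, endothelial cells 17.9, 2.34 and 27.4, and microglia 16.0, 3.38 and 23.8. In control the pairs of neuroblasts and pericytes and of endothelial cells and microglia were not apart beyond counting error; at 24 h this held for pericytes and oligodendrocytes and for microglia and endothelial cells, and at 3 d for endothelial cells and microglia. Mt3 thus reached at most 6.87% of its astrocyte level in any other class compared (pericytes at 3 d). The dividing progenitors and fibroblasts, too few to compare, had 171, 134 and 207 CPM and 329, 281 and 484 CPM of Mt1, and the progenitors stood out by Mt2 levels close to those of Mt1 (139, 86.9 and 155).

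**Figure D1:**
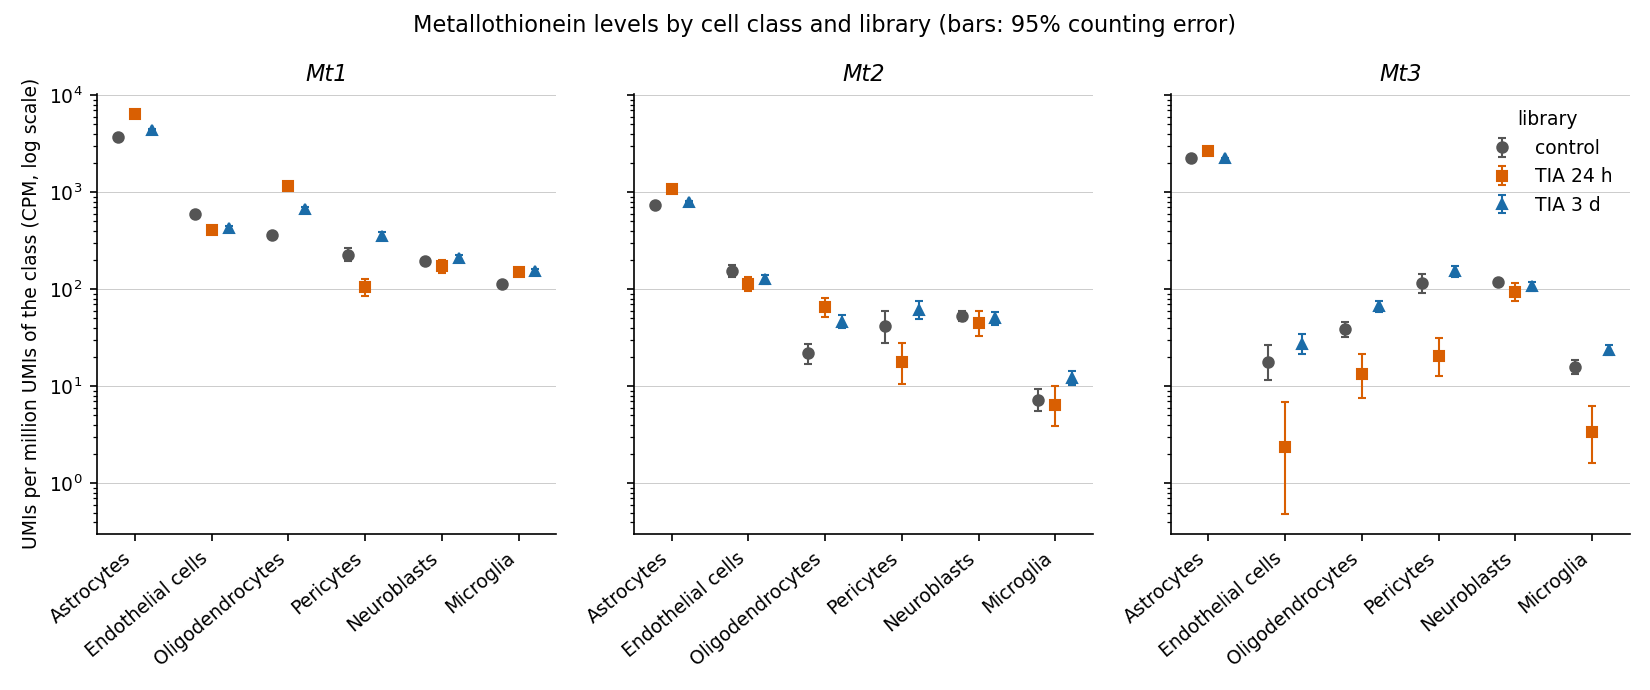
Level of Mt1, Mt2 and Mt3 (CPM, log axis) in each class and library, with counting intervals at 95%. Astrocytes lead for every gene, and oligodendrocyte Mt1 goes from 359 CPM in control to 1168 at 24 h and 674 at 3 d.

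Cells of a class that does not make a gene can still hold its UMIs from free RNA, adhering fragments or doublets, and the astrocyte genes give a scale for this. The summed level of the 10 astrocyte markers in microglia was 2.87% of that in astrocytes in control, 2.99% at 24 h and 3.59% at 3 d, with UMIs of 10 of 10 markers and most of them from Slc1a3 (271, 319 and 340 of 336, 366 and 434 CPM). Without Slc1a3 the share was 0.812%, 0.547% and 1.14%. Mt3 in microglia was at 0.706%, 0.128% and 1.07% of its astrocyte level, close to the glycolytic astrocyte gene Aldoc (0.942%, 0.267% and 1.30%). Microglial Mt1 stood at 3.05%, 2.34% and 3.53%, near the marker sum with Slc1a3 and above it without. Part of the microglial signal of every member is therefore at a level that astrocyte RNA in other cells also reached, and the part of such RNA in the results was not tested. Doublets called by Scrublet, 3.04%, 0.490% and 2.93% of cells (122, 6 and 140), stayed in all values except where said.

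The other classes split by this measure. In oligodendrocytes the markers reached 2.57%, 1.45% and 4.29% of the astrocyte sum (301, 177 and 518 CPM; 10, 9 and 10 markers with UMIs, Slc1a3 leading with 172, 114 and 248 CPM, Aqp4 at 0 at 24 h), and Mt1 reached 9.77%, 18.3% and 15.2%. In endothelial cells they reached 2.31%, 1.07% and 1.98% (269.7, 132 and 238 CPM; 10, 8 and 10 markers, Gja1 leading with 74.6, 101 and 92.0 CPM, Aqp4 and Aldh1l1 at 0 at 24 h), against 16.4%, 6.41% and 9.70% for Mt1 and 20.9%, 10.4% and 15.8% for Mt2. Mt1 of oligodendrocytes and Mt1 and Mt2 of endothelial cells thus lay well above the astrocyte markers in every library. Mt3 did not: it was at 1.70%, 0.505% and 3.00% in oligodendrocytes and at 0.792%, 0.0887% and 1.23% in endothelial cells, below the marker sum throughout. Mt2 in oligodendrocytes was above the marker sum, at 2.97%, 5.97% and 5.83%, and by a smaller factor than Mt1.

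Pericytes and neuroblasts showed another pattern. Pericytes held the markers at 4.70%, 0.860% and 9.38% of the astrocyte sum (549.9, 105 and 1132 CPM; 10, 8 and 10 markers, Slc1a3 leading with 196, 68.0 and 421 CPM, Aqp4 and Gjb6 at 0 at 24 h), and Mt1 (6.16%, 1.64% and 8.06%), Mt2 (5.63%, 1.63% and 7.73%), Mt3 (5.07%, 0.784% and 6.87%) and Aldoc (6.43%, 0.779% and 8.29%) went up and down with them. In neuroblasts the markers were at 6.80%, 3.71% and 5.87% (794, 455 and 709 CPM, 10 of 10 with UMIs, led by Slc1a3 with 277 CPM in control and 219 at 3 d and by Slc4a4 with 189 at 24 h), beside 5.30%, 2.72% and 4.77% for Mt1 and 5.29%, 3.56% and 4.80% for Mt3. The ratio of Mt1 to Mt3 had overlapping intervals in neuroblasts and astrocytes in each library (1.63 and 1.63 in control, 1.84 [1.43, 2.39] and 2.42 [2.35, 2.48] at 24 h, 1.97 and 1.98 at 3 d). Mt2 per Mt1 did not: it was 0.271 [0.239, 0.308], 0.260 [0.184, 0.361] and 0.240 [0.202, 0.284] in neuroblasts, above 0.2002 [0.195, 0.206], 0.1705 [0.164, 0.177] and 0.181 [0.177, 0.184] in astrocytes. In pericytes and neuroblasts the levels of all members thus followed those of astrocyte markers, the ratios among members were only in part those of astrocytes, and the source of this RNA was not tested.

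**Figure D2:**
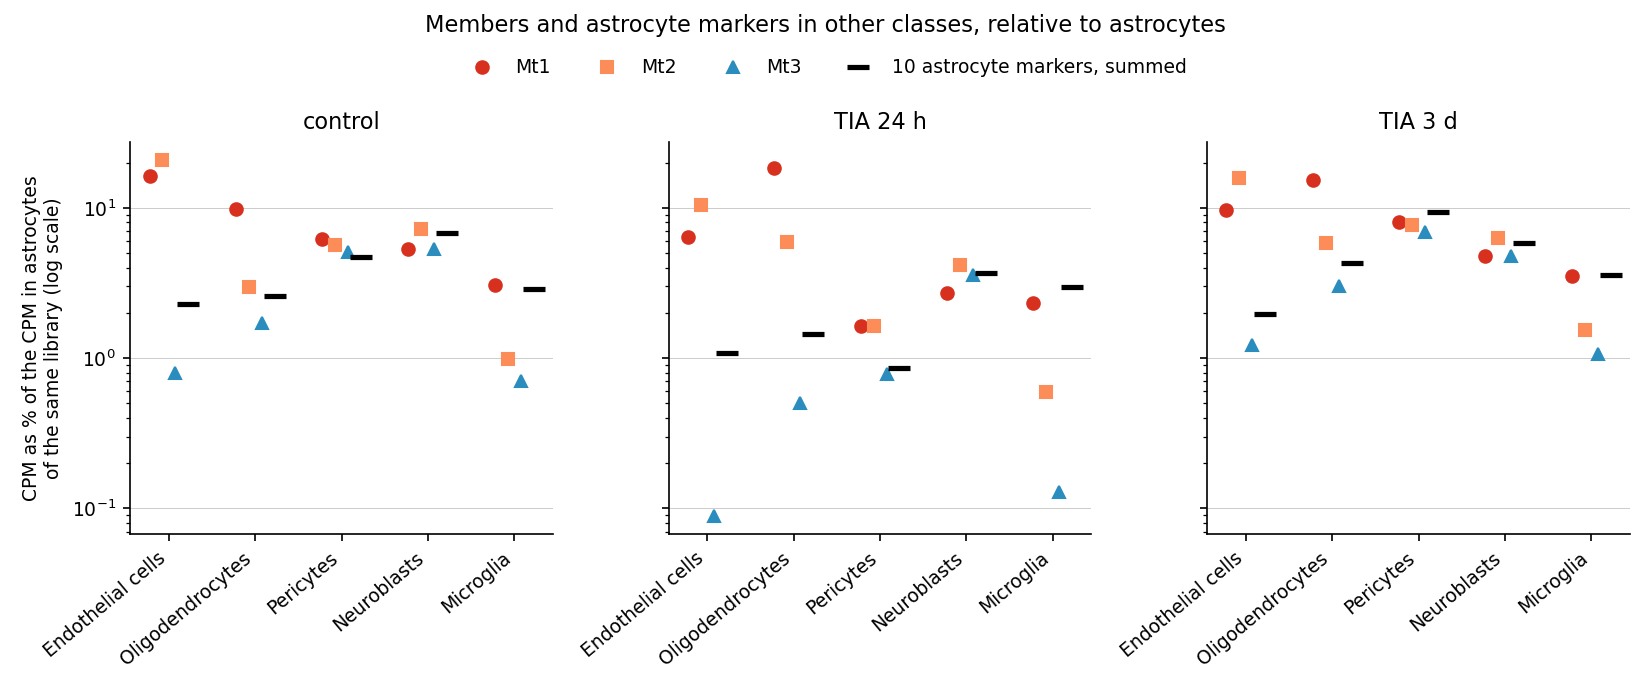
Level of Mt1, Mt2, Mt3 and the summed 10 astrocyte markers in each other class as a percentage of the astrocyte level of the same library (log axis). Mt1 lies above the markers in oligodendrocytes (18.3% against 1.45% at 24 h) and endothelial cells, and with them in pericytes and neuroblasts.

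The ratio of Mt1 to Mt3 sets the inducible pair against the astrocytic gene within a library. In astrocytes it was 1.63 [1.60, 1.65] in control, 2.42 [2.35, 2.48] at 24 h and 1.98 [1.96, 2.01] at 3 d, so Mt1 gained on Mt3 after TIA and had come part of the way back at 3 d. It was far higher in oligodendrocytes (9.31, 87.7 and 10.1), microglia (7.03, 44.1 and 6.54) and endothelial cells (33.6, 175 and 15.7, the value at 24 h from 3 UMIs of Mt3). Pericytes had 1.98 [1.51, 2.61] in control, 5.05 at 24 h and 2.33 [1.99, 2.73] at 3 d, and overlapped the astrocyte interval in control and at 3 d. Within the inducible pair, Mt2 per Mt1 was 0.2002, 0.1705 and 0.181 in astrocytes, higher in endothelial cells (0.256, 0.277 and 0.295) and much lower in oligodendrocytes (0.0609, 0.0556 and 0.0691) and microglia (0.0645, 0.0431 and 0.0790). The pair was thus not made in fixed proportion across classes, while within a class its proportion moved little with time, microglia with as few as 19 UMIs of Mt2 excepted.

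Against control, astrocytes at 24 h had more Mt1 and Mt2 and nearly the same Mt3, with none of the members past 2-fold. Calls were made for genes with at least 50 UMIs over both libraries and a CPM difference of at least 2-fold, which 7.26% of astrocyte genes met (2.31% higher, 4.95% lower). Mt1 went from 3679.5 to 6378 CPM, a 1.73-fold higher level (log2 ratio 0.79 [0.77, 0.82]), Mt2 from 737 to 1087 (1.48-fold, 0.56 [0.50, 0.62]) and Mt3 from 2264 to 2639 (1.17-fold, 0.22 [0.18, 0.26]). Placed among all astrocyte genes, these ratios were higher than those of 95.7%, 90.7% and 70.3% of genes. The sum of Mt1 and Mt2 went from 4416 to 7466 CPM (0.76). Per cell, astrocytes held on average 36.6 UMIs of Mt1 in control and 75.9 at 24 h. These means are not corrected for depth, which had medians of 9334 and 11495 UMIs. The order Mt1, Mt2, Mt3 thus separates the inducible pair from Mt3, at ratios that many other genes exceeded.

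The same direction held in each astrocyte cluster. In the cluster with Kcnk1 and Aldoc among its leading genes, Mt1 was at 4121 CPM in control, 7666 at 24 h and 5211 at 3 d; in the astrocyte cluster with most cells over all libraries it was at 3539, 6117 and 4156, and in the cluster with Agt among its leading genes at 2193, 3589 and 3123. Mt3 had the same ranking of clusters, with 2594, 3285 and 2731, then 2126, 2459 and 2026, then 1341, 1662 and 1647. The unnamed cluster with all markers of astrocytes and of other types had Mt1 at 2626, 4888 and 2947. Higher Mt1 at 24 h was therefore not confined to a single group of astrocytes.

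At 3 d most of the astrocyte difference was gone. Mt1 was at 4418 CPM (1.20-fold of control, log2 ratio 0.26 [0.24, 0.28]), Mt2 at 798 (0.12 [0.07, 0.16]) and Mt3 at 2227 (−0.02 [−0.05, 0.00]), and 1.58% of astrocyte genes were called (0.971% higher, 0.609% lower). The ratio of Mt3 changed sign under some alternatives, up to 0.18 with cells that held at most 1 UMI of other classes' markers, so it has no direction here. Directly between the TIA libraries, which both share the control as reference, Mt1 was lower at 3 d than at 24 h by a log2 ratio of −0.53, Mt2 by −0.45 and Mt3 by −0.25, none past 2-fold, beside 6.43% of genes that were (4.78% higher, 1.66% lower). The time course in astrocytes was thus an early and partly transient one for Mt1 and Mt2, with Mt3 close to level.

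Single astrocytes spread more widely in Mt1 at 24 h. To remove differences in depth, each cell was thinned to 2000 UMIs, which left 885, 226 and 1411 astrocytes and dropped 9, 13 and 16 (median depth before thinning 9334, 11495 and 9307 UMIs). The median cell then held 7 UMIs of Mt1 in control, 10 at 24 h and 8 at 3 d, at least 10% of cells held 15, 26 and 17 or more, and the highest cell had 43, 80.0 and 48. Variance divided by mean, which is 1 for counting error alone, was 3.94, 10.5 and 4.73 for Mt1, 1.62, 2.49 and 1.72 for Mt2 and 2.59, 3.72 and 2.70 for Mt3. By this measure, which also rises with the mean level, the wider spread at 24 h was largest for Mt1, the most abundant member. The 10% of cells with most Mt1 held 24.7%, 30.6% and 25.3% of its UMIs. Without them, a choice made after the values were seen, variance divided by mean was 2.45, 4.98 and 2.66, so the remaining cells also spread more widely at 24 h. For comparison, the glutamate transporter gene Slc1a2 had 3.17, 3.29 and 2.96 and the lipoprotein gene Apoe 9.33, 11.7 and 8.97; these were chosen after their values were seen.

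Most astrocytes had a UMI of Mt1 and of Mt3 even at this depth. At 2000 UMIs a UMI was found in 93.2% of cells in control, 89.8% at 24 h and 95.6% at 3 d for Mt1, in 67.5%, 70.8% and 68.7% for Mt2 and in 89.7%, 85.8% and 91.5% for Mt3. Unthinned shares were 96.8%, 90.4% and 97.4% for Mt1, 91.8%, 86.6% and 92.0% for Mt2 and 95.6%, 89.1% and 95.2% for Mt3. The added Mt1 at 24 h therefore lay in higher counts per cell. The share of cells without any Mt1 was larger than in control, with Mt1 found in 89.8% against 93.2% of cells (unthinned 90.4% against 96.8%). These cells also enter the spread given above, and their part in it was not tested. With Gfap, the intermediate filament gene of reactive astrocytes, as a divide (4.41%, 15.9% and 5.60% of cells with a UMI), cells with Gfap had a mean Mt1, at the same depth, of 9.15, 19.2 and 11.2 UMIs and cells without it 7.38, 11.2 and 8.90. Mt3 differed less, with 5.44, 6.83 and 5.58 against 4.59, 4.91 and 4.56. Mt1 in the 24 h library was hence higher on both sides of the divide than in control, and highest in the cells with Gfap, of which there were only 36.

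**Figure D3:**
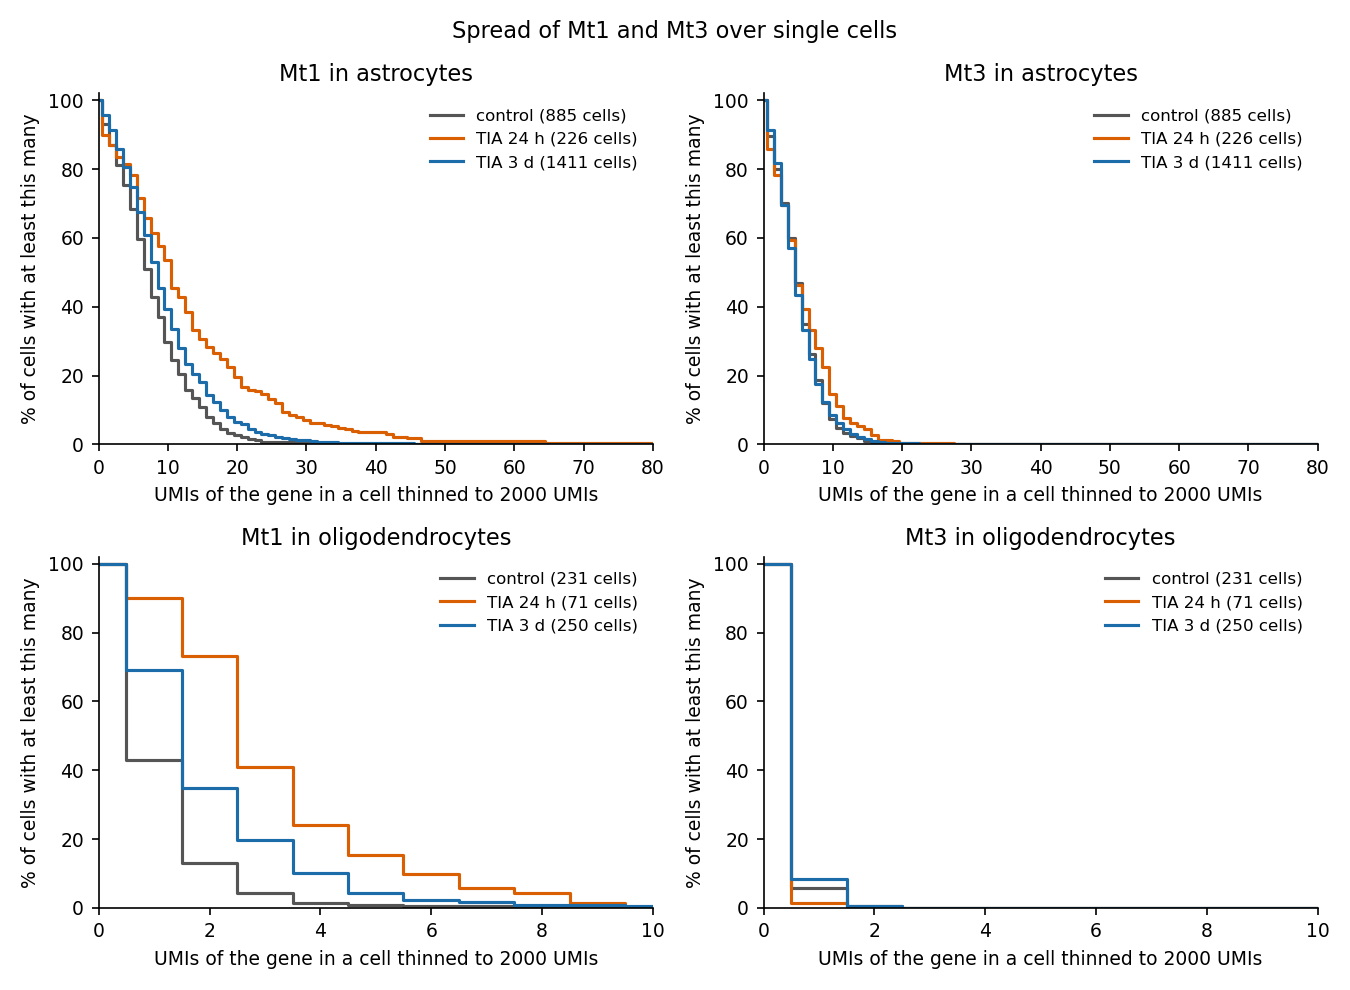
Percentage of cells (y axis) with at least a given number of UMIs (x axis) of Mt1 and Mt3 in astrocytes and oligodendrocytes, each cell thinned to 2000 UMIs. The Mt1 curve of 24 h astrocytes runs out to 80.0 UMIs against 43 in control, and 90.1% of oligodendrocytes at 24 h have at least 1 UMI of Mt1 against 42.9% in control.

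Members varied together from cell to cell in astrocytes, and also in pericytes and neuroblasts, where few cells held most of the Mt1 UMIs. Mt1 and Mt2 correlated at 0.21 in control, 0.12 at 24 h and 0.06 at 3 d in oligodendrocytes. In microglia they correlated at 0.17, 0.09 and 0.09. Their correlation was 0.50, 0.49 and 0.51 in pericytes and 0.51, 0.34 and 0.46 in neuroblasts. For Mt1 and Mt3 it was 0.65, 0.28 and 0.49 in pericytes and 0.70, 0.60 and 0.51 in neuroblasts. Over thinned astrocytes (885, 226 and 1411 cells), counts of Mt1 and Mt3 had a Pearson correlation of 0.64, 0.79 and 0.64, those of Mt1 and Mt2 0.46, 0.63 and 0.49, and those of Mt2 and Mt3 0.39, 0.53 and 0.39. These are descriptions within libraries of shared preparation. Among 5717 genes with a UMI in at least 20% of astrocytes, the sum of Mt1 and Mt2, scaled to depth, went most closely with Mt3 (0.83), Ckb (0.75), Gapdh (0.75), Cst3 (0.74) and Aldoc (0.74). Mt3 in turn went with Mt1 (0.83), Ckb (0.79), Aldoc (0.78), Gapdh (0.76) and Gstm5 (0.75), with Mt2 at rank 11 (0.70). Cells rich in Mt3 were therefore also rich in Mt1 and Mt2, although the library averages of the pair and of Mt3 moved differently with time. In endothelial cells Mt1 and Mt2 correlated at 0.43, 0.17 and 0.20 within the class, where too few cells held Mt3 (7, 1 and 36 at this depth) for a correlation with it.

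Over the 18 profiles of class and library, the genes most like Mt1 among 15263 were Apoe (0.97), Mfn1 (0.94), Rida (0.93), Rhbdl1 (0.93) and Tprkb (0.92), and Mt2 followed at rank 11 (0.90), with Mt3 far behind (0.71). Those most like Mt2 were Fgd6 (0.96), Zfp521 (0.95), Fam107a (0.94), Ddah1 (0.94) and Ahcyl1 (0.94), with Mt1 at rank 13 and Mt3 at rank 606 (0.74). Mt3 was closest to Aldoc (0.98), Kcnk1 (0.98), Mmd2 (0.97), Lhx2 (0.97) and Cspg5 (0.97), which are genes of astrocytes. By class and time the inducible pair thus had profiles near each other, and Mt3 had that of an astrocyte gene.

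Oligodendrocytes showed the clearest rise of the inducible pair. At 24 h Mt1 rose from 359 to 1168 CPM, 3.25-fold (log2 ratio 1.70 [1.59, 1.81]; 1183 and 1403 UMIs), and Mt2 rose from 21.9 to 64.9 CPM (1.57 [1.09, 2.05]). Both were called, among 7.99% of oligodendrocyte genes (2.97% higher, 5.02% lower). Mt3 went the other way, from 38.6 to 13.3 CPM, and fell by 1.53 (127 and 16 UMIs), at levels under those of the astrocyte markers. The erythrocyte gene Hbb-bs, foreign to oligodendrocytes and chosen after its values were seen, went the same way in them (3667, 6.66 and 2586 CPM) and, with little return at 3 d, in the main microglia cluster (729.7, 15.3 and 43.8); its bearing on Mt3 was not tested. The number of cells at 24 h was small, 72, and those without any UMI of an astrocyte marker (33 in control, 13 at 24 h and 29 at 3 d) had Mt1 at 417, 1507 and 794 CPM. Higher oligodendrocyte Mt1 after TIA was thus also present in cells without astrocyte markers, a choice of cells made after seeing the data.

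At 3 d oligodendrocyte Mt1 stood at 674 CPM, 1.87-fold of control and short of the 2-fold call (0.91 [0.81, 1.01]), and Mt2 at 46.5 CPM, which was called (1.09 [0.68, 1.51]; 4.04% of genes were, 3.3% higher and 0.743% lower). Mt3 was at 66.9 CPM, 0.79 above control in log2 and 2.33 above 24 h, a swing that the summed astrocyte markers (301, 177 and 518 CPM) also made. The Mt2 values move with single choices: the 24 h ratio was 2.69 with doublets left out, 2.47 without the 5 cells with most UMIs of Mt2 and 3.94 in cells without astrocyte markers, and at 3 d it was 0.94 without regression, under the call, and 1.94 and 2.05 with doublets left out and without the 5 top cells. Mt3 at 24 h lost its call with doublets left out (−0.91) and was at −2.45 in cells without astrocyte markers, and at 3 d it was at 1.10 and 0.18 under the same choices. Mt1 lay between 1.65 and 1.85 at 24 h and between 0.86 and 0.99 at 3 d over the alternatives that kept at least 10 cells in each library. In the 11, 6 and 7 cells with at most 1 UMI of other classes' markers it was at 619.5, 1569 and 872 CPM, with ratios of 1.34 [0.87, 1.82] at 24 h and 0.49 [−0.06, 1.04] at 3 d. Mt1 was thus past 2-fold at 24 h in these few cells as well, while at 3 d it was not beyond counting error in them.

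The rise of Mt1 in oligodendrocytes was spread over the cells. At 2000 UMIs per cell, 42.9% [36.4, 49.5] of control oligodendrocytes had a UMI of Mt1, 90.1% [80.7, 95.9] at 24 h and 69.2% [63.1, 74.9] at 3 d, with 231, 71 and 250 cells and 1, 1 and 0 left out. Unthinned, the shares were 93.1%, 97.2% and 97.6% at median depths of 13417, 16150.5 and 12901 UMIs, where UMIs from background were not separated. The mean was 0.636, 2.65 and 1.44 UMIs, and the 10% of cells with most Mt1 held 43.5%, 26.6% and 35.0% of them. Mt2 was found in 2.16%, 14.1% and 7.20% of cells and Mt3 in 5.63%, 1.41% and 8.40%. The change was therefore one of most oligodendrocytes rather than of a few cells with high counts.

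Endothelial cells had lower Mt1 and Mt2 at 24 h, short of 2-fold, and less surely so at 3 d. Mt1 went from 603 CPM to 409 at 24 h (−0.56 [−0.72, −0.40]) and 429 at 3 d (−0.49 [−0.62, −0.36]), and Mt2 from 154 to 113 (−0.45) and 126 (−0.29), beside 4.46% of genes called at 24 h (2.17% higher, 2.28% lower) and 3.22% at 3 d (2.59% higher, 0.631% lower). In cells without any astrocyte marker UMI (156, 136 and 239) Mt1 was at 653, 409 and 472 CPM, which is the same order, and Mt2 at 151, 129 and 145 CPM, with overlapping intervals. In the few cells with at most 1 UMI of other classes' markers (12, 18 and 33) Mt1 was at 443 CPM in control, 250.4 at 24 h and 434 at 3 d. When only cells past both limits were dropped, Mt1 was at −0.24 at 24 h and −0.03 at 3 d and Mt2 at −0.02 at 3 d, and at resolution 0.2 the 3 d values were likewise not apart from control. The lower level was thus clearest for Mt1 at 24 h, opposite to its direction in oligodendrocytes and astrocytes, while at 3 d it depended on the choice of cells. A UMI of Mt1 was found in 55.2%, 42.5% and 49.2% of cells at 2000 UMIs (69.3%, 62.4% and 69.2% unthinned, median depth 4643, 5690.0 and 4263, 17, 8 and 36 cells left out) and of Mt2 in 23.7%, 14.5% and 18.9%. Mt3, with 25, 3 and 75 UMIs, had too few for a call at 24 h. Its 24 h ratio went from −2.94 to −0.38 when only cells past both limits were dropped and −0.40 at resolution 0.2, and its 3 d ratio went from 0.61 to 1.26 with doublets left out and 1.44 without astrocyte markers. Mt2 at 3 d was at −1.45 in cells with at most 1 UMI of other classes' markers.

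Microglia had low levels of the whole family. Mt1 went from 112 CPM to 149 at 24 h (0.41 [0.24, 0.57]) and 156 at 3 d (0.47 [0.36, 0.59]), and Mt2 from 7.25 to 6.43 (−0.17) and 12.3 (0.77), none past 2-fold, while 3.52% of microglial genes were called at 24 h (1.77% higher, 1.75% lower) and 1.66% at 3 d (1.06% higher, 0.605% lower). The class pools a main cluster (907, 218 and 980 cells), with Mt1 at 109, 128 and 154 CPM, and a smaller one (119, 66 and 295 cells) with 137, 200.1 and 161 CPM and a larger part of the cells after TIA. In the main cluster the intervals of control and 24 h overlapped, and the part of the shift between clusters in the 24 h value of the class was not tested. In microglia without any astrocyte marker UMI, Mt1 was at 117, 147 and 158 CPM, nearly the same as in all of them. With fewer UMIs, their 24 h ratio of 0.33 [−0.14, 0.78] was not beyond counting error. Mt3 fell by 2.24 at 24 h (139 and 10 UMIs) and was at 0.58 at 3 d. In cells without astrocyte markers Mt3 was at −0.89 at 24 h, not called and from very few UMIs, and at 2.18 at 3 d. Mt2 passed 2-fold at 3 d with doublets left out (1.23), without the 5 top cells (1.23), without astrocyte markers (1.25) and in cells with at most 1 UMI of other classes' markers (1.44), and in the latter also at 24 h (1.16), so its value depends on few cells. At 2000 UMIs, Mt1 was found in 17.6%, 19.4% and 25.1% of microglia and Mt3 in 3.07%, 0% of 279 (at most 1.08% at this depth, which does not bound the share of cells with Mt3) and 4.66%; unthinned the shares were 49.9%, 62.7% and 62.5% and 7.41%, 3.17% and 14.9%, at median depths of 7867, 9447.5 and 7828 UMIs with 15, 5 and 10 cells left out. Mt3 is not known as a microglial gene; its microglial share was lowest in the 24 h library, and free RNA, doublets and expression were not separated in it.

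In pericytes and neuroblasts the values rested on few cells. Pericyte Mt1 fell by 1.12 [−1.48, −0.76] at 24 h and was 0.65 above control at 3 d, and Mt3 fell by 2.47 and was then at 0.42, with 3.44% of pericyte genes called at 24 h (1.92% higher, 1.52% lower) and 5.54% at 3 d (4.93% higher, 0.618% lower), while Mt2 had too few UMIs for a call at 24 h (48 over both libraries). The 10% of pericytes with most Mt1 held 76.5%, 88.6% and 74.7% of it. The 24 h ratio of Mt1 changed sign with doublets left out (0.26), in cells with at most 1 UMI of other classes' markers (0.51) and in cells without astrocyte markers (0.38), where Mt1 was at 55.7, 72.4 and 123 CPM. Its 3 d ratio was then higher (1.09, 1.69 and 1.14), and Mt3 at 24 h was at −0.41 with doublets left out. A fall of Mt1 in pericytes was thus not a stable result. Neuroblasts had no called member (7.01% of genes were at 24 h, 0.578% higher and 6.43% lower, and 1.39% at 3 d, 0.345% higher and 1.04% lower), and the 10% of cells with most Mt1 held 99.5%, 91.7% and 85.3% of its UMIs. Without the 5 cells with most UMIs, the 24 h ratio of Mt1 went from −0.17 to −2.29 and that of Mt3 from −0.35 to −4.24, and with doublets left out they were 2.04 and 2.32. No direction can be read from Mt1, Mt2 or Mt3 in neuroblasts.

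Between the TIA libraries, Mt3 was the member that differed most outside astrocytes, neuroblasts excepted. From 24 h to 3 d it rose by a log2 ratio of 2.82 in microglia, 3.55 in endothelial cells (from 3 UMIs), 2.89 in pericytes and 2.33 in oligodendrocytes, and by 0.18, short of a call, in neuroblasts. Called genes made up 2.74% in microglia (1.87% higher, 0.879% lower), 4.62% in endothelial cells (3.86% higher, 0.759% lower), 5.93% in pericytes (5.13% higher, 0.799% lower), 7.95% in oligodendrocytes (6.45% higher, 1.5% lower) and 4.83% in neuroblasts (4.1% higher, 0.723% lower). Mt1 and Mt2 were called in pericytes alone (1.77 and 1.80); elsewhere Mt1 was at 0.06 in microglia, 0.07 in endothelial cells, 0.28 in neuroblasts and −0.79 in oligodendrocytes, and Mt2 at 0.94, 0.16, 0.17 and −0.48. Microglial Mt2 passed 2-fold under several alternatives (1.20 with both limits, 1.34 without regression, 1.10 with doublets left out, 1.39 as mean over cells, and also without the 5 top cells) and was at 0.27 in cells with at most 1 UMI of other classes' markers. The Mt3 call was lost in endothelial cells when only cells past both limits were dropped (0.88) and at resolution 0.2 (0.81), and in pericytes with doublets left out (0.75), where Mt1 (0.82) and Mt2 (0.86) lost theirs as well. Mt3 in neuroblasts ranged from −1.10 with doublets left out to 3.78 without regression. The rise of Mt3 thus stayed past 2-fold in microglia and oligodendrocytes under every alternative with a value, and depended on the choice of cells in the other classes. Without astrocyte markers it rested on 1 UMI at 24 h in each, with 3.06 [0.43, 8.43] in microglia and 2.63 [−0.13, 8.05] in oligodendrocytes, where the interval includes no change. Of the astrocyte homeostasis genes past 2-fold, nearly all were higher along with Mt3. In microglia, endothelial cells and neuroblasts most of the list did not pass. The counts were 5 higher and 0 lower of 21 in microglia (median 0.67) and 13 and 1 of 20 in oligodendrocytes (1.22). They were 13 and 0 of 20 in pericytes (2.22), 7 and 0 of 15 in endothelial cells (0.89) and 10 and 0 of 21 in neuroblasts (0.94). Astrocyte RNA in these cells and their own Mt3 cannot be told apart in this rise.

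Over all cells kept, Mt1 was at 1136 CPM in control, 1876 at 24 h and 1580.0 at 3 d, Mt2 at 233, 310.2 and 287, and Mt3 at 647, 684 and 743. These totals mix the levels of the classes with the share of astrocytes, which was highest at 3 d. At 3 d their log2 ratio to control was 0.48 for Mt1 and 0.20 for Mt3, against 0.26 and −0.02 within astrocytes. A count of the whole suspension would thus have shown more of every member at 3 d, Mt3 included.

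Pathways known to induce Mt1 and Mt2 were read from lists of genes in the same classes. Of 17 glucocorticoid response genes with enough UMIs in astrocytes at 24 h, 10 were called higher and 0 lower, with a median log2 ratio of 1.15 against 0.02 over all genes, led by Fkbp5 (4.58), Nfkbia (2.08) and Hif3a (1.95). In oligodendrocytes 12 of 15 were higher (median 3.37), led by Plin4 (5.75), Hif3a (4.43) and Fkbp5 (4.40), and at 3 d still 12 of 17 (1.56), beside 6 of 18 in astrocytes (0.66). At 24 h the list was also raised in endothelial cells (8 of 15, median 1.88), where Mt1 and Mt2 were lower, and in pericytes (6 of 11) and microglia (6 of 14). The endothelial median lay between those of oligodendrocytes and astrocytes. Over all genes at 24 h, 2.31% were higher in astrocytes, 2.97% in oligodendrocytes, 2.17% in endothelial cells, 1.92% in pericytes and 1.77% in microglia, and at 3 d 0.971% in astrocytes, 3.3% in oligodendrocytes and 2.59% in endothelial cells. The 0 higher of 12 in neuroblasts at 24 h is what a share of 0.578% over all genes would give. There 2 of the 12 were lower (median −0.22), beside 6.43% of all genes. A role of glucocorticoids in the metallothionein result was not tested. The STAT3 and interleukin-6 response had 7 higher and 3 lower of 12 genes in astrocytes at 24 h (median 1.44; Serpina3n 3.53, Osmr 2.28, Gfap 2.27) and 1 higher of 12 at 3 d, and in oligodendrocytes 2 of 4 higher at 24 h (Serpina3n 3.19, Junb 1.86) and 3 of 6 at 3 d (Serpina3n 2.48, Cebpd 1.43, Junb 1.01). It also had 3 of 9 higher at 24 h (Lcn2 5.62, Cebpd 2.29, Osmr 1.05) and 2 of 11 at 3 d (Lcn2 3.29, Cebpd 2.08) in endothelial cells, where Mt1 was not higher, and a role of this pathway was not tested either.

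The remaining lists of inducing pathways had few called genes in astrocytes and oligodendrocytes. Metal handling, with zinc and copper transporters, chaperones and the metal sensor gene Mtf1, had 3 higher of 28 in astrocytes at 24 h. All of them were zinc importers (Slc39a14 1.29, Slc39a1 1.10, Slc39a6 1.01), beside 2.31% of all astrocyte genes that were higher. The list had 0 of 21 in oligodendrocytes and 1 of 22 in endothelial cells (Atp7a 1.03). The zinc exporter gene Slc30a1, like Mt1 a target of Mtf1, was not past 2-fold in endothelial cells (0.60). At 3 d it was 0 of 29 in astrocytes and 1 of 24 in oligodendrocytes (Slc39a12 1.17). The Nrf2 oxidative response had 1 higher of 15 in astrocytes at 24 h (Hmox1 3.13) and 0 higher and 1 lower of 10 in oligodendrocytes (Me1 −1.33), and the hypoxia response 0 of 10 and 0 of 9, but 3 higher of 10 in endothelial cells (Adm 1.76, Slc2a1 1.37, Bnip3 1.24; 2.17% of all endothelial genes were higher). At 3 d oligodendrocytes had 1 higher of 11 Nrf2 genes (Slc7a11 1.37) and 1 higher of 12 hypoxia genes (Hk2 1.45). With 2.97% of all oligodendrocyte genes higher at 24 h and 3.3% at 3 d, counts of 0 or 1 in lists of this size are near what any genes would give and say nothing for or against these pathways. Of the metallothionein receptor genes Lrp1 and Lrp2 only Lrp1 had enough UMIs, with 189.7, 239.7 and 186 CPM in astrocytes (0.34 and −0.03) and 339, 450.5 and 360.0 CPM in microglia (0.41 and 0.09). Lrp1 was at −0.75 and 0.75 in oligodendrocytes (46, 10 and 82 UMIs) and at 0.76 at 3 d in endothelial cells, and it was called higher at 3 d than at 24 h in both, with 2.71 from 5 UMIs in the latter.

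Of the dissociation and immediate early genes past 2-fold, nearly all were higher in oligodendrocytes, like Mt1. In astrocytes, where Mt1 was higher, all of those past 2-fold were lower. Many others in the list did not pass. In oligodendrocytes 5 were higher and 0 lower of 11 at 24 h (median 0.93; Fosb 4.06, Fos 2.91) and 6 higher and 1 lower of 12 at 3 d (median 1.00; Fosb 2.97, Fos 1.94, Dusp1 1.64), whereas in astrocytes 0 were higher and 7 lower of 12 at 24 h (median −1.11; Atf3 −4.01, Zfp36 −1.94). At 3 d astrocytes had 0 higher and 3 lower of 13 (median −0.72). Over all genes, 2.97% and 3.3% were higher in oligodendrocytes at 24 h and 3 d, and 4.95% and 0.609% lower in astrocytes. The part of handling in the Mt1 rise of oligodendrocytes was not tested. Astrocyte homeostasis genes had 1 higher of 21 in astrocytes (Gjb6 1.01, median 0.10) and 2 higher and 8 lower of 18 in oligodendrocytes (median −0.71; S1pr1 −4.48, Gja1 −4.33, Htra1 2.34). Lower astrocyte genes were also seen in pericytes (0 higher and 8 lower of 15), neuroblasts (0 and 12 of 20) and endothelial cells (0 and 7 of 14) at 24 h, where 1.52%, 6.43% and 2.28% of all genes were lower (5.02% in oligodendrocytes). The direction of these genes in oligodendrocytes was thus that of Mt3 and opposite to that of Mt1. In microglia 0 were higher and 2 lower of 20, where 1.75% of all genes were lower. The list had a median of −0.12 there with 8 genes above 0, so it had no clear direction. The microglial astrocyte markers other than Slc1a3 summed to 64.5 CPM in control and 47.7 at 24 h. Aldoc went from 15.2 to 5.75 CPM, beside the fall of Mt3, while Slc1a3 stood at 271 and 319.

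The genes lie in a cluster on chromosome 8, all on the plus strand and each with 3 exons, in the order Mt4 (chr8:94137197-94139031), Mt3 (chr8:94152607-94154146), Mt2 (chr8:94172664-94173568) and Mt1 (chr8:94179082-94180327) of GRCm38. Mt2 and Mt1 are 5513 bases apart, and Mt3 ends 18517 bases before Mt2. The 250 bases before each RefSeq start (build GRCm38.p6, found for 3 of 3 members, with starts that differ slightly from the coordinates given for Mt1 and Mt2) are shown because the inducible pair and Mt3 differ in the letters known from the metal response element. Capitals mark this element, TGCACNC or TGCGCNC on either strand.
Mt1: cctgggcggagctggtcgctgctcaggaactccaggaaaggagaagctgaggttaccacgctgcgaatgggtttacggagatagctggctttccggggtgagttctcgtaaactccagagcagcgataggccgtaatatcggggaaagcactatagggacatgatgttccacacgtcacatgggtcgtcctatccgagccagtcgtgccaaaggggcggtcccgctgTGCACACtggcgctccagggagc
Mt2: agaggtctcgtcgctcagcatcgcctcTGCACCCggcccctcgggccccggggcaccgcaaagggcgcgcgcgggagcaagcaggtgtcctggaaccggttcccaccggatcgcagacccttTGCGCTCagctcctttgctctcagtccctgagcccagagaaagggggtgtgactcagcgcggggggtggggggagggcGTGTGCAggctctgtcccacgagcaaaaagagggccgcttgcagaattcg
Mt3: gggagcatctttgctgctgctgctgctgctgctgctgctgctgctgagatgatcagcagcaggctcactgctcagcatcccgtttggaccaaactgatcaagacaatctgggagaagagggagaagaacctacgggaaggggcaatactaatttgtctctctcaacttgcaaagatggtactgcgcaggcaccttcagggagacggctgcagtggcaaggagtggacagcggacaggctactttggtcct
Mt1 (chr8:94178839-94179088, plus strand) has the letters once, 23 bases before its start, Mt2 (chr8:94172368-94172617, plus strand) has them at 3 places, 223, 128 and 50 bases before its start, and Mt3 (chr8:94152357-94152606, plus strand) has none. Of 32841 promoters of this length 21.4% have at least 1 and 1.26% at least 3. The letters TGACNNNGC of the antioxidant response element (10.2% of promoters) occurred once in Mt2 and ACANNNTGT of the glucocorticoid response element (5.84%) once in Mt1, with neither in Mt3. A match describes letters only, and absence says only that these letters are not in this window. Each window lies before 1 start, while Mt1, Mt2 and Mt3 have 3, 2 and 3 annotated transcripts. Letters outside the window, also those after the start used, were not counted. The counts of letters therefore do not rank the whole promoters of the members.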

How the data were processed

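UMI counts deposited by the authors, made per the file headers with Cell Ranger 7.1.0 (3.1.0 in the submitters' notes) on mm10, were read for 3 libraries, and cells with at least 500 genes and at most 7% mitochondrial UMIs were kept. Seurat 5.3.0 (R 4.3.3) clustered all cells (2000 variable features, UMI number and mitochondrial share regressed out, 20 components, resolution 0.5). A cluster took the type with at least 3 markers in at least 10% of its cells and 2-fold above other clusters, and stayed unnamed with all markers of several types (erythrocyte markers not counted) or at low depth. UMIs were summed per class and library and scaled to CPM, with exact Poisson and conditional binomial intervals (scipy 1.17.1, numpy 2.4.6, pandas 2.3.3, python 3.11.15); a library at 0 UMIs was set to 3. The steps were tested on simulated data. Scrublet (scanpy 1.11.5) served an alternative. No test was made. Members and lists were chosen with earlier results of these data known. The lists were metal handling, metallothionein receptors, glucocorticoid response, Nrf2 oxidative response, STAT3 and interleukin-6 response, hypoxia response, dissociation and immediate early genes, and astrocyte homeostasis; Gjb6 and Glul are in the glucocorticoid and homeostasis lists, Cebpd and Lcn2 in the glucocorticoid and STAT3 lists, Junb in the STAT3 and dissociation lists, and Aldoc, Aqp4, Gja1, Gjb6, Ntsr2 and Slc1a3 also among the astrocyte markers. Genes named were the members, up to 3 per list, class and time with the largest ratio, the 5 most like each member, and leading markers.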

Additional observations from a re-analysis of the deposited data

Results flagged for a closer look

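The same gene moved in opposite directions between classes or between times in the values that follow, each a log2 ratio to control from 1 library per condition, and the differences were not tested. At 24 h Mt1 was at 1.70 in oligodendrocytes and −1.12 in pericytes, and in pericytes it was at 0.65 at 3 d. Mt2 was at 1.57 in oligodendrocytes and −0.45 in endothelial cells at 24 h, and at 1.09 and −0.29 at 3 d. Mt3 at 24 h was at 0.22 in astrocytes and at −2.47 in pericytes, −2.24 in microglia and −1.53 in oligodendrocytes, which at 3 d stood at 0.42, 0.58 and 0.79. The Mt1 value of pericytes at 24 h changed sign with doublets left out (0.26), so it has no firm direction. The endothelial Mt2 value at 3 d was at −0.02 when only cells past both limits were dropped, and has none either. The 24 h values of Mt3 lost their call in pericytes (−0.41) and oligodendrocytes (−0.91) with doublets left out. In microglia this was so in cells without astrocyte markers (−0.89). The oligodendrocyte values of Mt1 kept their sign under every alternative that gave a value. At 3 d the value was not beyond counting error in the few cells with at most 1 UMI of other classes' markers (0.49 [−0.06, 1.04]). Oligodendrocyte Mt1 lay above the share of astrocyte markers in these cells as a class. Mt3 outside astrocytes stayed at or under about that share and went up and down with it in pericytes and oligodendrocytes. Astrocyte RNA in other cells and a response of these cells cannot be told apart for Mt3.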

How the results depend on the processing

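Values are log2 ratios to control, and the cause of each shift was not tested. For Mt1+Mt2 in astrocytes at 24 h (0.76) and 3 d (0.24): both limits needed to drop a cell 0.83 and 0.27, at most 1 UMI of other classes' markers 0.88 and 0.39; at 24 h also no regression 0.72, doublets left out 0.72, without the 5 top cells 0.69, mean over cells 0.66; at 3 d median-ratio scaling 0.20. Mt3 in astrocytes at 24 h (0.22): no regression 0.18, doublets left out 0.18, at most 1 UMI 0.39, mean over cells 0.14; at 3 d (−0.02): both limits 0.0175, at most 1 UMI 0.18, median-ratio scaling −0.0616, mean over cells 0.00491. Mt1+Mt2 in oligodendrocytes: doublets left out 1.85 at 24 h (from 1.69) and 1.03 at 3 d (from 0.92), past 2-fold, and 1.93 at 24 h without astrocyte marker UMIs, an alternative chosen after seeing the data, like the astrocytes with cluster 11 added. In pericytes at 24 h Mt1 (−1.12) and Mt1+Mt2 (−1.13) changed sign: doublets left out 0.26 and 0.23, at most 1 UMI 0.51 and 0.73, no marker UMIs 0.38 and 0.29.

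Genes called with at least 100 UMIs or at 1.5-fold, by construction, were 494 or 2385 in astrocytes at 24 h (840 in the report's setting), 96 or 864 at 3 d (205), 368 or 1755 in oligodendrocytes at 24 h (641), and 164 or 1160 at 3 d (375). Mt1+Mt2 kept their direction, at 0.66 to 0.88 and 0.20 to 0.39 in astrocytes and 1.62 to 1.93 and 0.87 to 1.03 in oligodendrocytes. With at most 1 UMI of other classes' markers fewer than 10 cells remained in oligodendrocytes at 24 h and 3 d, which are left out of these ranges (1.37 and 0.47 [−0.08, 1.01]), and too few UMIs for some of Mt2 in pericytes and Mt3 in pericytes and endothelial cells. No member was among the variable features, so allowing them gave the same values. Of 833 log2 ratios under alternatives, 611 stayed within counting error, 216 moved and 6 changed direction after a call. The 611 include 72 from allowing the members as variable features, which could not change. They also include 72 from adding cluster 11 to the astrocytes, where the ratios of other classes could not change.

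No paired analysis was possible because each condition has 1 library of pooled mice. Effects of mouse, library, surgery and occlusion cannot be told apart. The 24 h library has the fewest cells (72 oligodendrocytes, 112 neuroblasts), and Mt3 outside astrocytes rests on as few as 3 UMIs. Endothelial cells and pericytes were the shallowest classes. Genes under 50 UMIs were not called. Other data of the series were not analysed here.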
